A study of Mus musculus with 30 samples.

Results

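The Hox cluster genes are the 39 protein-coding genes of the 4 mouse Hox clusters, chosen by symbol (Hoxa, Hoxb, Hoxc or Hoxd followed by a number) from the 55401 genes of each count table. They comprise 11 Hoxa genes on chromosome 6 (minus strand), 10 Hoxb genes on chromosome 11 (96194316 to 96368256, GRCm38, plus strand), 9 Hoxc genes on chromosome 15 (102921103 to 103036852, plus strand) and 9 Hoxd genes on chromosome 2 (74668310 to 74765142, plus strand). Cells were routinely grown in serum with LIF and the inhibitors CHIR99021 and PD184352, and were changed to serum with LIF before the experiments. All 39 were present in every table, and their exons were counted in 30 nuclear RNA-seq libraries of mouse embryonic stem (ES) cells, from 15 conditions with 2 biological replicates each.

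Hox genes encode homeodomain transcription factors that give cells their position along the head-to-tail axis and along the limbs. Within a cluster the genes lie in the order in which they are used, from the anterior genes of low paralog number to the posterior genes of high number. In ES cells the clusters are held almost silent by Polycomb complexes, and their promoters carry both active and repressive histone marks, so they are classical bivalent genes. SRCAP is the ATPase of the remodeler that places the histone variant H2A.Z in chromatin, and H2A.Z is abundant at bivalent promoters.

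SYAT cells derive from the CGR8 ES cell line. They carry SRCAP fused to YPet and an auxin-inducible degron together with Tir1, so that the auxin IAA causes SRCAP to be degraded, and their controls were kept in auxinole, which blocks Tir1. The time course compared SYAT cells after 2, 4, 6 and 8 h of 500 µM IAA with control (10 libraries), and parental CGR8 cells, which lack the degron, were compared with and without 4 h of IAA to show what IAA does by itself (4 libraries). SYAT cells with and without 1 h of IAA were sorted in early G1 (EG1) or late G1 (LG1) (8 libraries), so that the effect of IAA could be compared between the start and the end of G1. These cells also expressed an mCherry that is degraded in mitosis, and its level and a Hoechst DNA stain guided the sort. SYAT cells that also expressed wild-type SRCAP (wtSRCAP) or catalytically dead SRCAP (cdSRCAP) fused to mCherry after 24 h of doxycycline were compared with and without 4 h of IAA (8 libraries), to ask which effects need the ATPase. These wtSRCAP and cdSRCAP lines are called the transgenic cells here, and they were sorted to similar, high mCherry levels. Each transgene was carried by 1 selected clone, so transgene and clone cannot be told apart, and the degron acts on the protein, so the RNA does not check SRCAP loss.

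Exon columns held 17540823 to 22873893 counts per library in the time course. They held 45617992 to 60214521 counts in CGR8 cells, 19740778 to 26672402 counts in sorted cells and 12236493 to 26369773 counts in the transgenic cells. The Hox genes together received very few of these, namely 188 to 327 counts per library in the time course, 276 to 293 in CGR8, 256 to 524 in sorted cells and 36 to 184 in the transgenic cells. The ES cell markers (10 genes, among them Pou5f1, Nanog and Sox2) summed to between 1489 and 4042 CPM in all libraries; CPM are counts relative to library size after TMM scaling, which corrects for library composition.

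Promoters are shown for the 4 members with the smallest p-values in the IAA time course. These are the 250 bases before each RefSeq start (GRCm38.p6), from 5′ to 3′ on the strand of the gene, with each CG dinucleotide in capitals; Hoxa10 has 2 annotated starts.
Hoxa10 (chr6:52240855-52241104, minus strand): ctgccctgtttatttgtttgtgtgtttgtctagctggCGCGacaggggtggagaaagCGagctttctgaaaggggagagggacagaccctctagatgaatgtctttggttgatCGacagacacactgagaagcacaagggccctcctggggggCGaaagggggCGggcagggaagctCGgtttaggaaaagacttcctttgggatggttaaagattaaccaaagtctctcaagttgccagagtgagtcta
Hoxa10 (chr6:52234940-52235189, minus strand): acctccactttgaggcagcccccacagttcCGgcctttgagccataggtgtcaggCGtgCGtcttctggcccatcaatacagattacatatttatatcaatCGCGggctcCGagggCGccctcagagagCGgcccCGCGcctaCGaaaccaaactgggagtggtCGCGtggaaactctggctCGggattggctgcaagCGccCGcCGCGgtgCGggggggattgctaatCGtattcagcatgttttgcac
Hoxb4 (chr11:96318017-96318266, plus strand): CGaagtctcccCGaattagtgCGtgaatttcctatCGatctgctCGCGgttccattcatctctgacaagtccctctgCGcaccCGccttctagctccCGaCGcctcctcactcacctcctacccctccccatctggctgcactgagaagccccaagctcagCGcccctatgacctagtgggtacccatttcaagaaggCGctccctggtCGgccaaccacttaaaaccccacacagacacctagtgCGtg
Hoxd1 (chr2:74762730-74762979, plus strand): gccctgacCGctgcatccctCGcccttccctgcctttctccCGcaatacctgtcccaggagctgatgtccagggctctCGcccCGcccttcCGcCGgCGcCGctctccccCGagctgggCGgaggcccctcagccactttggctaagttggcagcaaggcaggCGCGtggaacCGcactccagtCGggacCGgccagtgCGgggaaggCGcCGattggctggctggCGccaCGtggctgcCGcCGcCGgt
Hoxd13 (chr2:74667975-74668224, plus strand): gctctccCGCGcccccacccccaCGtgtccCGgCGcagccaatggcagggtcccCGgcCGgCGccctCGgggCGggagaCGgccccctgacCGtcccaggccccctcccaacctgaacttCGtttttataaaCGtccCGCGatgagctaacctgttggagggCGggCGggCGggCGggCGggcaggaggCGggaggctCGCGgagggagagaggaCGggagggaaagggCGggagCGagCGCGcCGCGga
The Hoxd13 stretch held 31 CG dinucleotides, a number reached by 5.24% of the 32544 promoters of the same length in the table, identical ones counted once, the Hoxd1 stretch held 24 and the Hoxb4 stretch 14, against a median of 6 over all promoters. The Hoxa10 stretches held 7 and 20. Over the 24 promoters found for 22 of the 39 members, the median was 12.5 CG dinucleotides, with a range from 2 to 35. The motif TATAAA, searched on both strands, was present in the Hoxd13 stretch and in 1 Hoxa10 stretch, in 4 of the 24 Hox promoters and in 12.3% of all promoters. The counts of CG overlap no other motif searched, and a match is only a match of letters.

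Most Hox counts came from genes at the ends of the clusters. In the time course the highest level per exon length was that of Hoxd13, a posterior gene of digit and genital development, with a mean of 1.61 ± 0.419 CPM per kb (SD over 10 libraries). Hoxc13, which acts in hair and nails, followed at 0.65 ± 0.154 CPM per kb, and these differed beyond their spread from each other and from the next genes. Hoxb9, a gene of the thoracic region, at 0.332 ± 0.0636 CPM per kb, and Hoxd1 at 0.28 ± 0.138 CPM per kb did not differ beyond their spread, and Hoxb4, known from blood stem cells, followed at 0.206 ± 0.127 CPM per kb.

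In CGR8 cells the order of levels per length, among the members reported individually, was Hoxd13 (0.505 ± 0.195 CPM per kb, SD over 4 libraries), Hoxc13 (0.387 ± 0.21), Hoxb9 (0.19) and Hoxc12 (0.188), and the first 2 did not differ beyond their spread. In sorted cells it was Hoxc13 (1.64 ± 0.452 CPM per kb, SD over 8 libraries), Hoxc12 (0.739), Hoxd13 (0.731) and Hoxb9 (0.498). In the transgenic cells these were Hoxc13 (0.429 CPM per kb), Hoxc12 (0.401), Hoxd13 (0.387) and Hoxb9 (0.3), all within 1 SD of each other. The highest gene of the Hoxb, Hoxc and Hoxd clusters was the same in all 4 tables, namely Hoxb9, Hoxc13 and Hoxd13. The tables were normalized separately, so levels are compared within a table only.

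The first and last genes of the 4 clusters, 8 of 39 members (a grouping made after the levels were seen), held 18.1% of the members' exon length. They received between 54% and 68% of the Hox exon counts in each library of the time course, 56.5% to 65.6% in CGR8, 64.3% to 73% in sorted cells and 50.6% to 73.7% in the transgenic cells. In the time course their median level was 0.195 CPM per kb, against 0.0357 CPM per kb for the 31 inner genes, and 7 of the 8 lay above that inner median. Not all ends were alike in the time course, where Hoxa13 (0.040 CPM per kb) and Hoxc4 (0.031) stood near the inner median, and Hoxc12 next to the end of its cluster and Hoxb9 inside its own stood among the highest.

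**Figure D1:**
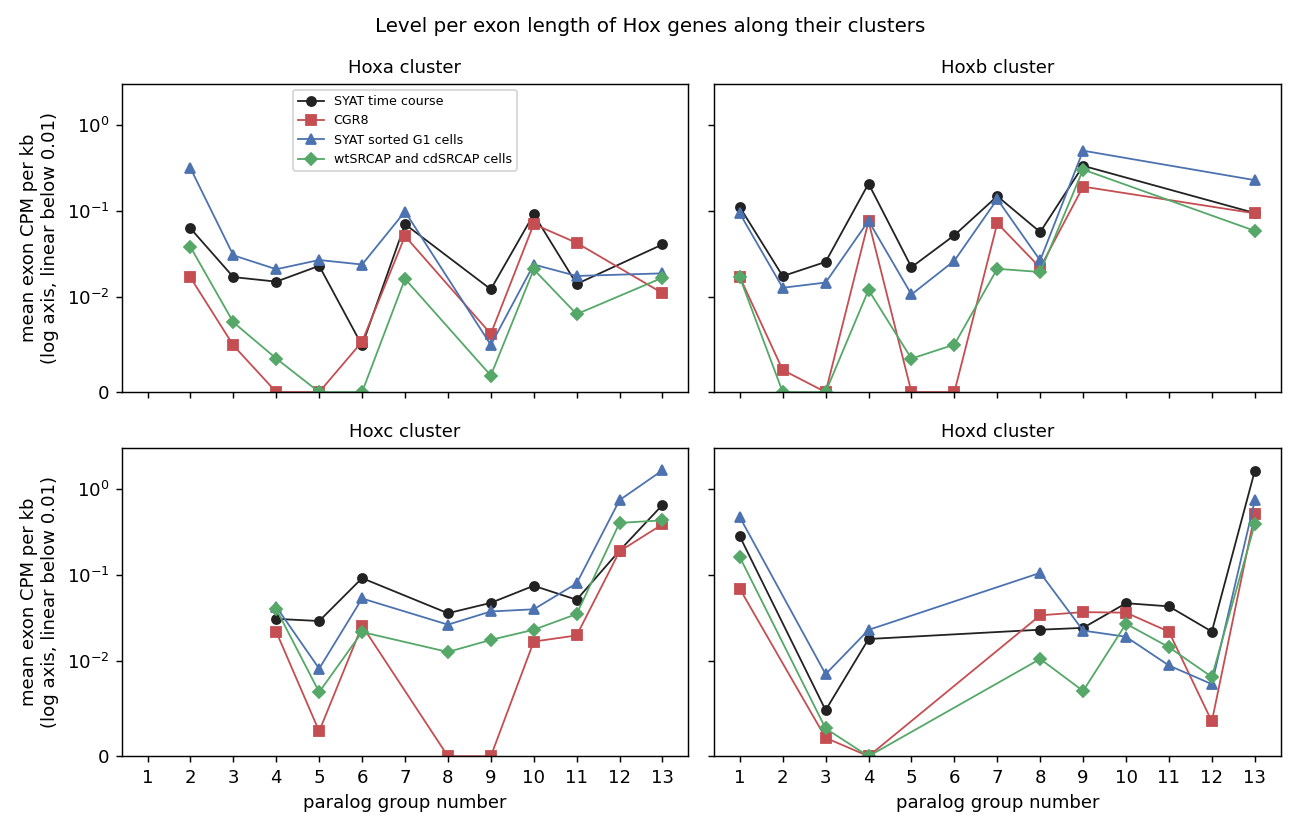
Mean exon CPM per kb of exon (y axis, logarithmic above 0.01 and linear below) of Hox genes against their paralog group number (x axis), 1 panel per cluster; each line is the mean over all libraries of 1 table. Hoxd13 reaches 1.61 CPM per kb in the time course, and in all 4 tables Hoxb9, Hoxc13 and Hoxd13 are the highest genes of their clusters, of which Hoxb9 is the one that is not at a cluster end, and 1 member is not plotted.

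Most members, end genes among them, were close to the limit of detection. Of the 39 members, 33 had a median of at most 5 exon counts per library in the time course, 27 in CGR8, 29 in sorted cells and 34 in the transgenic cells. A count of 0 in every library was found for 8 members in CGR8 (Hoxa4, Hoxa5, Hoxb3, Hoxb5, Hoxb6, Hoxc8, Hoxc9 and Hoxd4) and for 5 in the transgenic cells (Hoxa5, Hoxa6, Hoxb2, Hoxb3 and Hoxd4), and for none in the time course or the sorted cells. A count of 0 leaves room for up to 3 counts in a library. The filter on low counts left 7 members to test in the time course, 6 in CGR8, 9 in sorted cells and 6 in the transgenic cells. The 27 members not picked for individual description reached at most 8 counts in any time course library, 18 in CGR8, 25 in sorted cells and 9 in the transgenic cells.

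Exons of 10 members overlap an exon of an antisense gene, and 16 overlap an exon of some other gene. Of the genes described, this concerns Hoxa7 (Hoxaas3) and Hoxd11 (Gm28309). The library kit keeps the strand, but the strand setting of the counting is not given in the sources used here, so reads of these pairs may be mixed.

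After IAA, the mean of the summed Hox RNA stood higher in SYAT cells at each of the 4 times, but no gene and no sum passed the test. The sum over all 39 members was 8.86 ± 1.56 CPM (SD, n = 2) in control and 11.8 ± 1.07, 11.4 ± 2.08, 13.8 ± 1.19 and 13.9 ± 0.643 CPM after 2, 4, 6 and 8 h. At 4 h the libraries (12.9 and 9.92 CPM) overlapped the controls (9.96 and 7.76 CPM), and at the other times they did not. The controls held 197 and 188 Hox counts, and the libraries after 8 h 293 and 327. The log2 change was 0.41 at 2 h (SE 0.21), 0.36 at 4 h (SE 0.21), 0.64 at 6 h (SE 0.21; edgeR, adjusted p = 0.195) and 0.65 at 8 h (SE 0.21; adjusted p = 0.218). The mean of the 4 times gave 0.51 (SE 0.17; adjusted p = 0.199). All 4 comparisons share the 2 control libraries, so they are not independent.

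By cluster, the Hoxa sum was 0.907 ± 0.29 CPM in control and 1.9 ± 0.429 CPM over the 8 IAA libraries, all of which lay above both controls. The Hoxb sum was 1.76 ± 0.198 CPM in control and 2.75 ± 0.568 CPM after IAA, again with 8 of 8 above. The Hoxc sum (2.22 ± 0.51 and 2.75 ± 0.544 CPM) and the Hoxd sum (3.98 ± 0.955 and 5.3 ± 1.15 CPM) overlapped. In the exact two-sided permutation test of 2 control against 8 IAA libraries, p was 0.0444 for the Hoxa and for the Hoxb sum, the smallest this design can give, and 0.0889 for the sum of all members. Adjusted over 15 such tests, these became 0.167, 0.167 and 0.191. With labels permuted only within each replicate number, a test added after seeing the data, p was 0.08 for each of these 3 sums, the smallest that this arrangement can give (exact permutation; adjusted 0.15).

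Among members with any count, 28 of 39 had a higher mean at 2 h than in control, 26 of 38 at 4 h, 26 of 38 at 6 h and 27 of 38 at 8 h, that is between 68.4% and 71.8%. Of all genes with a count, between 49.9% and 53.9% were higher at these times. Among the 7 tested members the median log2 change was 0.37, 0.33, 0.71 and 0.45 at 2, 4, 6 and 8 h, and over all genes tested it was between 0.00 and 0.03. Hoxa10 and Hoxb4 are among the 7 only because IAA libraries reached the count filter, so the median of the members leans upward.

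**Figure D2:**
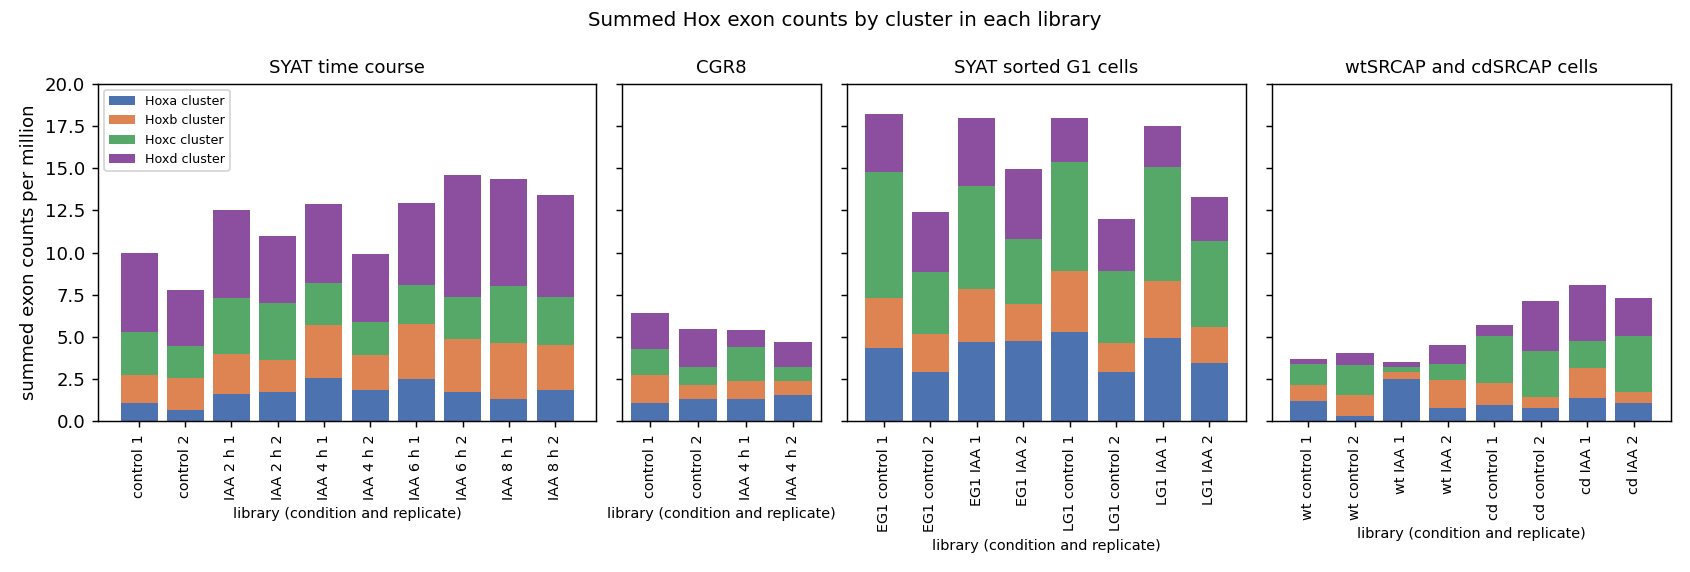
Summed exon CPM of the Hox genes (y axis) in each of the 30 libraries (x axis), stacked by cluster, with 1 panel per table; each bar is 1 library. In the time course the controls reach 9.96 and 7.76 CPM and the highest IAA library 14.6 CPM; the 4 cdSRCAP libraries stand above the 4 wtSRCAP libraries.

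No member was called at any of the 4 times, at an absolute log2 change above 0.5 with an adjusted p below 0.05. Of the 19205 genes tested by edgeR, 0% were called in either direction at 2 h and at 4 h, 0.0312% higher and 0.0364% lower at 6 h, and 0.00521% higher and 0% lower at 8 h. DESeq2 also called 0 members, though it gave Hoxa10 and Hoxb4 no adjusted p at 6 h. It called 0.0104% of all genes higher and 0.0364% lower at 2 h, 0.245% and 0.719% at 4 h, 1.29% and 2.04% at 6 h, and 0.594% and 1.82% at 8 h.

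At an unadjusted p below 0.05, edgeR gave 0 of the 7 members at 2 h, where 1.37% of all genes were higher and 2.55% lower. It gave 1 member, lower, at 4 h (3.09% of all genes higher, 6.01% lower), 3 members, higher, at 6 h (7.93% higher, 8.21% lower) and 0 at 8 h (5.13% higher, 8.44% lower). For the mean of the 4 times it gave 0 members (4.82% of all genes higher, 9.2% lower) and called 0 (0.203% higher, 1.01% lower). DESeq2 gave 0, 0, 3 and 0 members at the 4 times by this rule.

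Those 3 members at 6 h were Hoxa10, Hoxb4 and Hoxd13. Hoxa10 reached the count filter only in the 6 h libraries, and Hoxb4 only in IAA libraries. Both were thus tested because of the libraries where they were high. Their p-values, the Hoxa10 ratio below and the count of 3 are selected towards higher values. Hoxa10, which patterns the lumbar spine and the uterus, had 1 and 3 counts in control; at 2 h it had 2 and 5, at 4 h 1 and 8, at 6 h 15 and 12, and at 8 h 3 and 8. Both 6 h libraries lay above all others. At 6 h its log2 change was 3.08 (SE 0.85; adjusted p = 0.133), and the ratio of the summed counts, 27 against 4, was 8.85 with an exact counting interval of 3.08 to 34.8.

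Hoxb4 had 7 and 2 counts in control, with 4 and 7 at 2 h, 6 and 21 at 4 h, 16 and 15 at 6 h, and 17 and 11 at 8 h. The libraries after 6 and 8 h lay above both controls, while those after 2 and 4 h overlapped them. The log2 change was 2.11 at 6 h (SE 0.74; adjusted p = 0.211) and 1.57 at 8 h (SE 0.75; adjusted p = 0.395).

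Hoxd13, the most abundant member, had 64 and 62 counts in control, with 82 and 71 at 2 h, 77 and 75 at 4 h, 72 and 96 at 6 h, and 107 and 102 at 8 h. On the CPM scale this was 2.9 ± 0.479 in control, 5.03 ± 1.21 after 6 h and 4.71 ± 0.739 after 8 h, with both libraries of either time above the controls; at 2 and 4 h the groups overlapped on this scale, which takes depth into account. The log2 change was 0.80 at 6 h (SE 0.32; adjusted p = 0.262) and 0.70 at 8 h (SE 0.32; adjusted p = 0.37).

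Hoxd1, the gene at the other end of the same cluster, had 18 and 13 counts in control, with 7 and 13 at 2 h, 2 and 8 at 4 h, 5 and 9 at 6 h, and 13 and 22 at 8 h. Its level was lowest after 4 h, where both libraries lay below both controls, with a log2 change of -1.62 (SE 0.65; adjusted p = 0.48), and after 8 h the libraries overlapped the controls again.

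Of the other members named here, Hoxc13 and Hoxb9 were tested and had no p below 0.05 at any time. Hoxc13 had 35 and 26 counts in control and 20 to 45 in the IAA libraries, and Hoxb9 had 13 and 21 counts in control and 14 to 21 after IAA. Hoxa7 (1 and 3 in control, 1 to 9 after IAA), Hoxb1 (2 and 3, then 2 to 10), Hoxc6 (5 and 7, then 2 to 7), Hoxc12 (2 and 2, then 0 to 10) and Hoxd11 (3 and 2, then 0 to 11) were below the count filter and were not tested. With a looser filter, edgeR gave Hoxa7 an unadjusted p of 0.0317 at 4 h (log2 2.00, adjusted p = 0.578). It gave Hoxb1 0.0443 (log2 1.78, adjusted p = 0.417) and Hoxc10 0.0259 (log2 2.50, adjusted p = 0.355) at 8 h.

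Libraries that did not overlap the controls were found for 1 tested member at 2 h (Hoxc13, higher; 18.6% of all genes), 1 at 4 h (Hoxd1, lower; 24.1%), 3 at 6 h (Hoxa10, Hoxb4 and Hoxd13, higher; 21.5%) and 3 at 8 h (the same symbols, higher; 20.9%). Hoxa10 and Hoxb4 entered this count through IAA libraries. Members below the count filter were left out, and some of them did not overlap either, such as Hoxc12 at 2 h (higher).

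**Figure D3:**
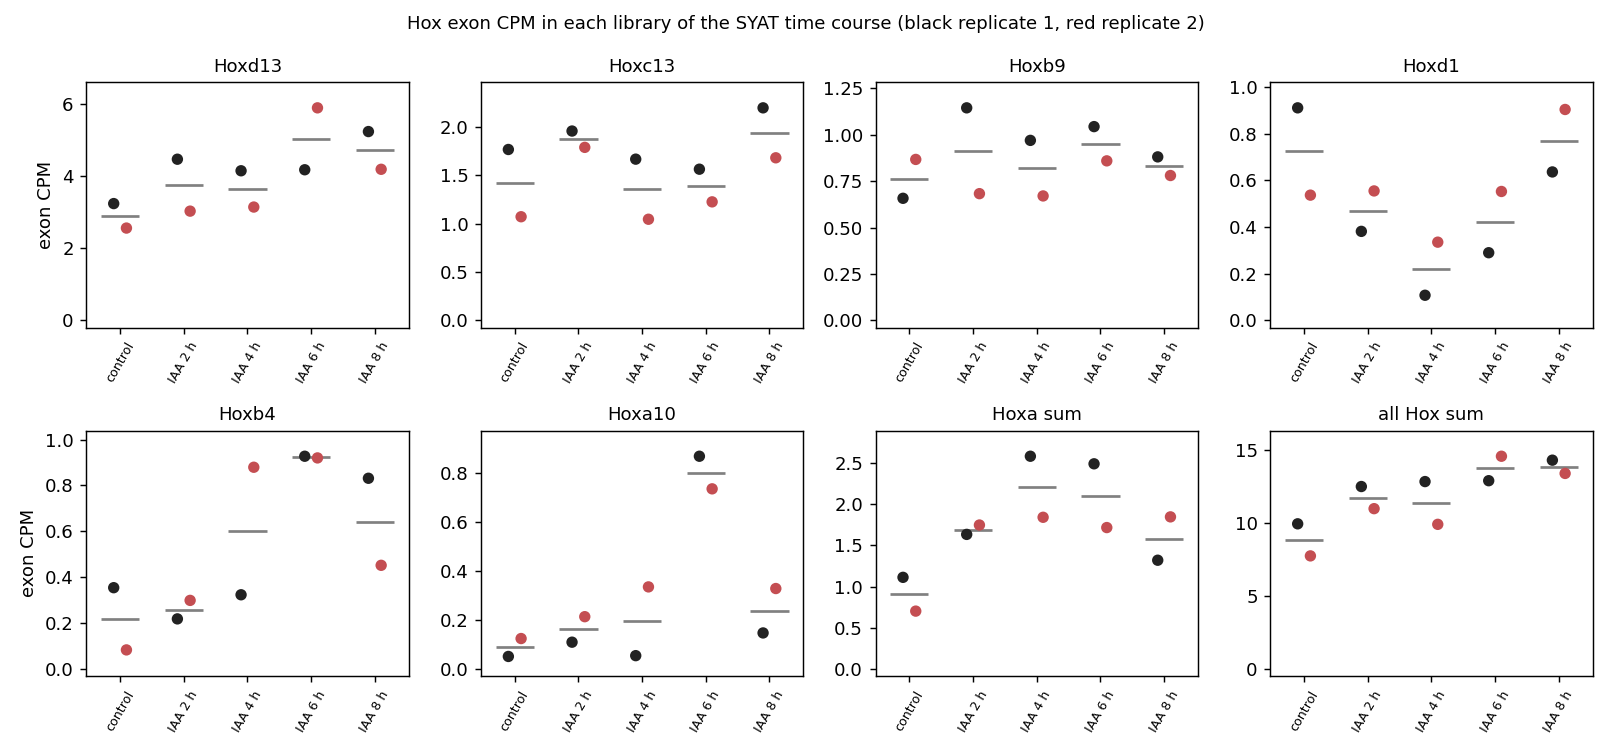
Exon CPM (y axis) in control SYAT cells and after 2, 4, 6 and 8 h of IAA (x axis) for 6 Hox genes, the Hoxa sum and the sum of all 39; points are libraries (black replicate 1, red replicate 2) and grey lines are means of 2. Hoxa10 reaches 0.869 and 0.736 CPM only after 6 h, Hoxb4 and Hoxd13 stand above both controls after 6 and 8 h, and Hoxd1 is lowest after 4 h.

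Of the genes that work with, act on or lie beside the clusters, 1 was called. For the mean of the 4 times, edgeR gave 4.82% of all genes higher and 9.2% lower at an unadjusted p below 0.05. It called 0.203% higher and 1.01% lower. Of 9 TALE cofactors, the homeodomain partners of Hox proteins, 0 were called and 2 had an unadjusted p below 0.05 for the mean of the 4 times, Meis1 (log2 0.90, SE 0.21; adjusted p = 0.0786) and Meis2 (0.95, SE 0.29; adjusted p = 0.155), both higher. Of 22 Polycomb genes 0 were called and 2 had such a p, both higher, and their median log2 change was 0.08. Of 9 upstream activators, among them Cdx genes, retinoic acid receptors and the Mll components Kmt2b and Men1, 7 were tested and 0 called, with 1 higher and 1 lower at an unadjusted p below 0.05. Of 11 noncoding RNAs inside the clusters 2 were tested, and Halr1, of the Hoxa region, had 2 and 9 counts in control and 12 to 33 counts after 4 to 8 h (mean of the 4 times, log2 1.64, SE 0.64; adjusted p = 0.279). Of 16 genes beside the clusters 13 were tested, and 1 was called over the 4 times, Calcoco1, a coactivator and autophagy gene beside the Hoxc cluster, which fell by 0.74 on the log2 scale (SE 0.12; adjusted p = 0.0291). It had 732 and 1045 counts in control and 323 and 371 after 6 h.

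Markers of other cell types were read in the same libraries. The 6 primitive streak and mesoderm genes summed to between 10.2 and 13.8 CPM in control and between 15.3 and 24.2 CPM after IAA, and the 5 endoderm genes to between 6.72 and 7.38 CPM in control and 7.24 and 11.8 CPM after IAA, so the first lay above control in all 8 IAA libraries, as the Hoxa and Hoxb sums did, while the ranges of the second overlapped. The 7 fibroblast genes summed to between 7.88 and 15 CPM in control and 8.46 and 20.5 CPM after IAA, with Postn at 0 counts in every library. The 6 neural genes summed to between 131.6 and 219.6 CPM in control and 133.2 and 230.2 CPM after IAA, which overlap. Of the 4 neural genes tested, 1 had an unadjusted p below 0.05 at 2, 4 and 8 h and for the mean of the 4 times, Pax6, a transcription factor of eye and neural progenitors, with 5.76 and 9.32 CPM in control and 10.2 to 17 CPM in the 8 IAA libraries (log2 0.77 for the mean, SE 0.27; adjusted p = 0.221). Their part in the Hox sums was not tested. In bulk RNA, more RNA per cell cannot be told apart from a larger share of cells that express a gene.

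In CGR8 cells, which lack the degron, 4 h of IAA gave no call among the 6 tested members by edgeR or DESeq2 (edgeR called 0% of 20250 genes higher and 0.00988% lower, DESeq2 0.454% and 0.237%), and 1 member had an unadjusted p below 0.05 by edgeR and 0 by DESeq2. This was Hoxd13, with 78 and 80 counts in control and 45 and 54 after IAA, in deeper libraries. Its level was 1.66 ± 0.237 CPM in control and 0.851 ± 0.0291 CPM after IAA, a log2 change of -0.96 (SE 0.42; adjusted p = 0.544), with no overlap between the groups. A lower value at p below 0.05 was found for 4.12% of all genes, and a higher one for 5.04%.

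Among the tested members without overlap in the lower direction were Hoxd13, Hoxb9 and Hoxc12 (20.6% of all genes), and 1 tested member, Hoxa10, did not overlap in the higher direction (21.6%). Members below the count filter were left out of this count, and some of them, such as Hoxb4, also stood higher without overlap. Hoxb9 had 36 and 33 counts in control and 8 and 22 after IAA (log2 -1.51, SE 0.78; adjusted p = 0.587), and Hoxc12 had 9 and 18 counts in control and 8 and 5 after IAA. The sum of all members was 5.95 ± 0.706 CPM in control and 5.06 ± 0.49 CPM after IAA (log2 -0.23, SE 0.23; adjusted p = 0.787), and 17 of the 31 members with a count were higher (54.8%, against 53.8% of all genes with a count).

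Hoxb4, below the count filter here, had 3 and 0 counts in control and 30 and 9 after IAA. The ratio of its summed counts was 10.8, with an exact counting interval of 3.43 to 54.6. That interval leaves out the spread between replicates. Without a filter on low counts, edgeR gave Hoxb4 a log2 change of 3.31 (SE 1.65; unadjusted p = 0.0448, adjusted p = 0.541). The fibroblast markers summed to between 5.76 and 8.44 CPM in these libraries, with Lum and Postn at 0. Some of the cofactor, noncoding and marker genes stood higher after IAA here as in SYAT cells. Halr1 had 286 and 503 counts in control and 747 and 1031 after IAA (log2 0.92, SE 0.22; unadjusted p = 0.00289, adjusted p = 0.54). Meis1 had 2.13 and 3.78 CPM in control and 5.4 and 4.47 CPM after IAA, without overlap (log2 0.74, SE 0.33; adjusted p = 0.544), while Meis2 overlapped (0.982 and 2.16 CPM, then 2.45 and 1.95 CPM). Pax6, too, stood higher without overlap, with 18.6 and 21.2 CPM in control and 28.5 and 29.3 CPM after IAA (log2 0.54, SE 0.16; adjusted p = 0.54). Calcoco1, which fell in SYAT cells, also stood lower here without overlap, as did 20.6% of all genes. It had 51.3 and 48.7 CPM in control and 46.8 and 36.4 CPM after IAA. At 4 h the log2 changes of the all-Hox sum stood at 0.36 in SYAT cells and -0.23 in CGR8 cells, and those of Hoxd13 at 0.33 and -0.96. By cluster they were 1.29 and 0.24 (Hoxa), 0.56 and -0.41 (Hoxb), 0.0035 and 0.18 (Hoxc) and 0.13 and -0.83 (Hoxd). The Hoxa sum thus stood higher without overlap in CGR8 cells too. It was 1.122 and 1.321 CPM in control and 1.328 and 1.565 CPM after IAA (edgeR, SE 0.40, adjusted p = 0.886). The difference between the cell lines was not tested, because the tables were made separately.

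In sorted cells the sum of all members differed with 1 h of IAA by less than the spread of the replicates. The sum of all members was 15.3 ± 4.07 CPM in control EG1, 16.4 ± 2.13 CPM in EG1 after IAA, 15 ± 4.25 CPM in control LG1 and 15.4 ± 2.98 CPM in LG1 after IAA. The log2 change with IAA was 0.10 in EG1 (SE 0.27) and 0.04 in LG1 (SE 0.27), each with an adjusted p of 1, and the difference between the phases was -0.06 (SE 0.38; adjusted p = 1). Replicate 1 stood above replicate 2 in all 4 conditions, with 524 against 315 counts in control EG1. No member of the 9 tested was called by edgeR or DESeq2 in either phase, where 0% of 21020 genes were called by either tool. At an unadjusted p below 0.05 there were 0 members by edgeR and by DESeq2, against 0.19% of all genes higher and 1.03% lower in EG1 and 0.285% and 0.733% in LG1 (edgeR). Hoxd1 did not overlap in EG1 (1 of 9 members higher, against 7.98% of all genes). Members below the count filter were left out of this count, and some of them did not overlap either. Hoxc8, for instance, had 0 and 0 counts in control EG1 and 4 and 6 in EG1 after IAA. With a looser filter, edgeR gave Hoxc8 in EG1 an unadjusted p of 0.023 (log2 5.43, adjusted p = 0.9999). It gave Hoxc4 in LG1 0.0381 (log2 -2.81), and neither was called.

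Between the phases, Hoxd1 had the smallest p of the members. It had 27 and 26 counts in control EG1, 32 and 27 in EG1 after IAA, 14 and 11 in control LG1, and 11 and 13 in LG1 after IAA. The lowest of the 4 EG1 libraries, at 26 counts, thus lay above the highest of the 4 LG1 libraries, at 14. From EG1 to LG1 it went from 0.982 ± 0.0628 to 0.599 ± 0.12 CPM in control (log2 -0.71, SE 0.37; adjusted p = 1) and from 1.36 ± 0.206 to 0.546 ± 0.0695 CPM after IAA (log2 -1.31, SE 0.37; adjusted p = 1). No gene was called by edgeR in either comparison (0%). DESeq2 called 0 members, with 0.00476% of all genes called higher in control and 0.00951% after IAA, and 0% lower. At an unadjusted p below 0.05 there were 0 members in control (0.709% of all genes higher, 0.733% lower) and 1 after IAA, Hoxd1, by edgeR and by DESeq2 (1.42% higher, 0.89% lower by edgeR).

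The Hoxd sum followed, with 3.77 ± 0.353 CPM over the 4 EG1 libraries and 2.67 ± 0.257 CPM over the 4 LG1 libraries, which lay below all 4 of EG1. The exact two-sided permutation test gave p = 0.0286, the smallest that 4 against 4 can give, and 0.167 after adjustment over 15 tests. This test takes no account of replicate numbers, along which these libraries deviated together (correlations of 0.48 to 0.68). With labels permuted within each number, the exact permutation p was 0.0556 (adjusted 0.15), the smallest possible there. Within control cells the log2 difference was -0.30 (SE 0.22) and after IAA -0.69 (SE 0.22). The Hoxa, Hoxb and Hoxc sums and the sum of all members gave p from 0.714 to 0.971 in the same exact permutation test.

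Hoxd13, at the other end of the Hoxd cluster, had 45 and 54 counts in control EG1, 36 and 54 in EG1 after IAA, 28 and 51 in control LG1 and 27 and 38 in LG1 after IAA, and the groups overlapped. Hoxc13, the leading gene of these cells, ranged from 63 to 156 counts. Hoxc12 did not overlap in control cells, with 39 and 19 counts in EG1 and 15 and 8 in LG1 (log2 -0.93, SE 0.52; adjusted p = 1); with Hoxd1 this made 2 of 9 members lower, against 11.7% of all genes. After IAA 1 of 9 was lower without overlap, against 11.8%. Members below the count filter were left out of these counts.

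In the same libraries the fibroblast genes summed to between 18.8 and 33.2 CPM in EG1 and 19.6 and 34.9 CPM in LG1, and the endoderm genes to between 10.4 and 13.5 CPM in EG1 and 7.1 and 11.7 CPM in LG1. Their part in the Hoxd1 values was not tested.

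**Figure D4:**
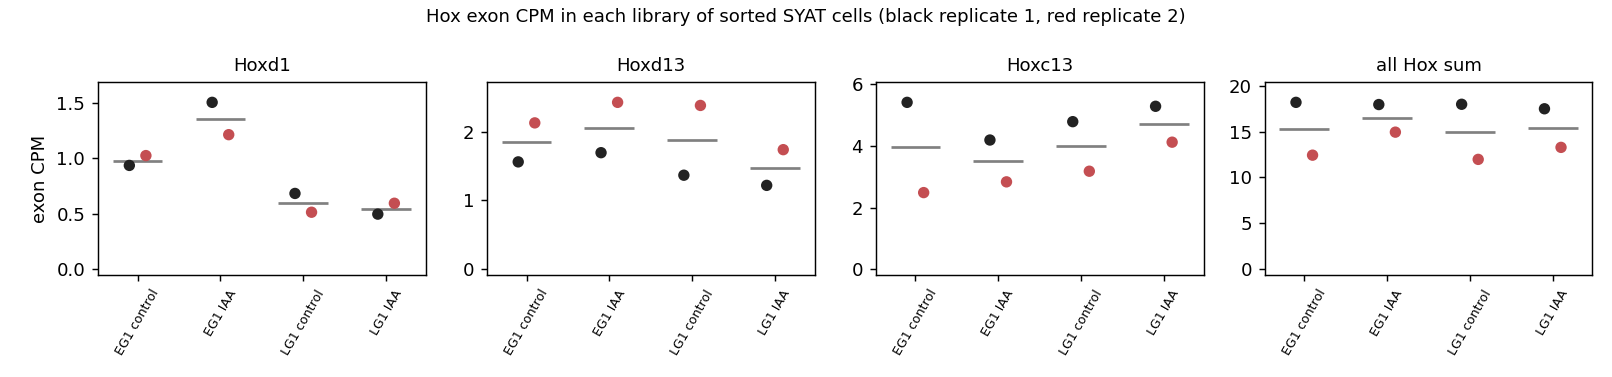
Exon CPM (y axis) of Hoxd1, Hoxd13, Hoxc13 and the sum of all 39 Hox genes in sorted SYAT cells (x axis: EG1 or LG1, control or 1 h of IAA); points are libraries (black replicate 1, red replicate 2) and grey lines are means of 2. All 4 EG1 libraries lie above all 4 LG1 libraries for Hoxd1, while the other panels overlap between the phases.

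Between wtSRCAP and cdSRCAP cells, the summed Hox RNA was higher in cdSRCAP cells in every library, without passing the test. The sum of all members was 3.86 ± 0.248 CPM in wtSRCAP control, 4.02 ± 0.725 CPM in wtSRCAP after IAA, 6.42 ± 0.989 CPM in cdSRCAP control and 7.7 ± 0.562 CPM in cdSRCAP after IAA. Over both treatments this was 3.94 ± 0.452 CPM in the 4 wtSRCAP libraries and 7.06 ± 0.991 CPM in the 4 cdSRCAP libraries, which lay above all 4. The exact two-sided permutation test gave p = 0.0286, the smallest possible here, and 0.167 after adjustment over 15 tests, and within replicate numbers it gave 0.0556, again the smallest possible (adjusted 0.15). The log2 difference was 0.73 in control (SE 0.32; edgeR, adjusted p = 1) and 0.92 after IAA (SE 0.32; adjusted p = 0.95).

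By value, the Hoxc and Hoxd sums differed more than the Hoxa and Hoxb sums; these contrasts between clusters were not tested. The Hoxc sum was 1.07 ± 0.622 CPM in wtSRCAP and 2.6 ± 0.738 CPM in cdSRCAP libraries (exact permutation p = 0.0571, adjusted 0.171), and the Hoxd sum was 0.591 ± 0.409 and 2.3 ± 1.17 CPM (exact permutation p = 0.0857, adjusted 0.191), with 3 of 4 cdSRCAP libraries above all wtSRCAP libraries in each. The Hoxa sums (1.23 ± 0.949 and 1.06 ± 0.266 CPM) and the Hoxb sums (1.05 ± 0.534 and 1.1 ± 0.538 CPM) overlapped.

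Hoxd13 had 2 and 10 counts in wtSRCAP control, 0 and 18 in wtSRCAP after IAA, 5 and 44 in cdSRCAP control, and 45 and 44 in cdSRCAP after IAA. Both cdSRCAP libraries after IAA lay above all wtSRCAP libraries, and the cdSRCAP controls overlapped them. The log2 difference after IAA was 2.35 (SE 1.06; adjusted p = 0.951).

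Hoxc12 had 0 and 4 counts in wtSRCAP control, 0 and 2 in wtSRCAP after IAA, 18 and 7 in cdSRCAP control, and 11 and 19 in cdSRCAP after IAA. All 4 cdSRCAP libraries lay above all 4 wtSRCAP libraries. Hoxc12 passed the count filter only through the cdSRCAP libraries, so its ratios and p-values are selected towards higher values there. The ratio of summed counts after IAA, 30 against 2, was 13 with an exact counting interval of 3.29 to 112, and in control, 25 against 4, it was 5.99 with an interval of 2.07 to 23.7; by edgeR the adjusted p was 0.951 after IAA and 1 in control. Hoxc13, its neighbour, had 20 and 21, 3 and 19, 14 and 49, and 10 and 38 counts in the same order, and overlapped.

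No member of the 6 tested was called by edgeR or DESeq2 in any of these comparisons. Of 19111 genes, 0% were called in either direction in control and 0% higher and 0.00523% lower after IAA (edgeR). DESeq2 called 0.0994% higher and 0.0209% lower in control, and 0.0262% and 0.0157% after IAA, and gave Hoxc12 no adjusted p in either. At an unadjusted p below 0.05, edgeR gave 0 members in control (2.5% of all genes higher, 1.32% lower) and 1 after IAA, Hoxc12 (2.84% higher, 2.19% lower). DESeq2 gave 1 in control, Hoxc12, and 2 after IAA, Hoxc12 and Hoxd13. Hoxc12 and Hoxd1 reached the count filter only in cdSRCAP libraries, and Hoxd13 mainly there. The p-values and counts of these genes are therefore selected towards higher values in cdSRCAP cells. Libraries did not overlap for 2 tested members in control, Hoxc12 and Hoxd1 (higher; 15.7% of all genes), and for 2 after IAA, Hoxc12 and Hoxd13 (higher; 19.1%). Members below the count filter were left out of this count, and some of them, such as Hoxd8 in control (higher), did not overlap either. Leaving out replicate 1 of wtSRCAP after IAA, the shallowest library with 12236493 exon counts and 36 Hox counts, gave a log2 difference after IAA of 0.73 for the sum, 1.58 for Hoxd13 and 3.07 for Hoxc12.

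IAA itself gave 0 called members of 6 in wtSRCAP cells (0% of all genes higher, 0.00523% lower) and 0 in cdSRCAP cells (0% in either direction), by edgeR, and 0 by DESeq2, which called 0.115% of all genes higher and 0.0733% lower in wtSRCAP and 0.0105% and 0.0942% in cdSRCAP cells. Both tools gave 0 members at an unadjusted p below 0.05 (edgeR, all genes: 2.93% higher and 4.48% lower in wtSRCAP, 1.65% and 3.99% in cdSRCAP). Of the tested members, libraries did not overlap for Hoxd1, higher (14.9% of all genes), and Hoxc13, lower (19.5%), in wtSRCAP cells, and for Hoxd13, higher (18.7%), in cdSRCAP cells. The all-Hox sum changed by a log2 of 0.07 (SE 0.32) in wtSRCAP and 0.26 (SE 0.31) in cdSRCAP cells, and the difference between these was 0.19 (SE 0.45; adjusted p = 1).

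Meis1, a TALE partner of posterior Hox proteins, was also higher in cdSRCAP cells by value, with a log2 difference of 1.42 in control (SE 0.40; adjusted p = 1) and 1.66 after IAA (SE 0.40; adjusted p = 0.951). The endoderm markers summed to between 2.39 and 3.51 CPM in wtSRCAP and 3.54 and 6.54 CPM in cdSRCAP cells. The fibroblast markers summed to between 1.63 and 7.6 CPM and between 2.79 and 5.12 CPM, with Lum and Postn at 0 in every library. Over all these libraries the primitive streak and mesoderm markers summed to between 5.08 and 13.6 CPM, and the neural markers to between 45.4 and 128.4 CPM. The lowest and the highest value of each lay in wtSRCAP cells, so these lists overlapped between the lines. Their part in the Hox values was not tested.

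**Figure D5:**
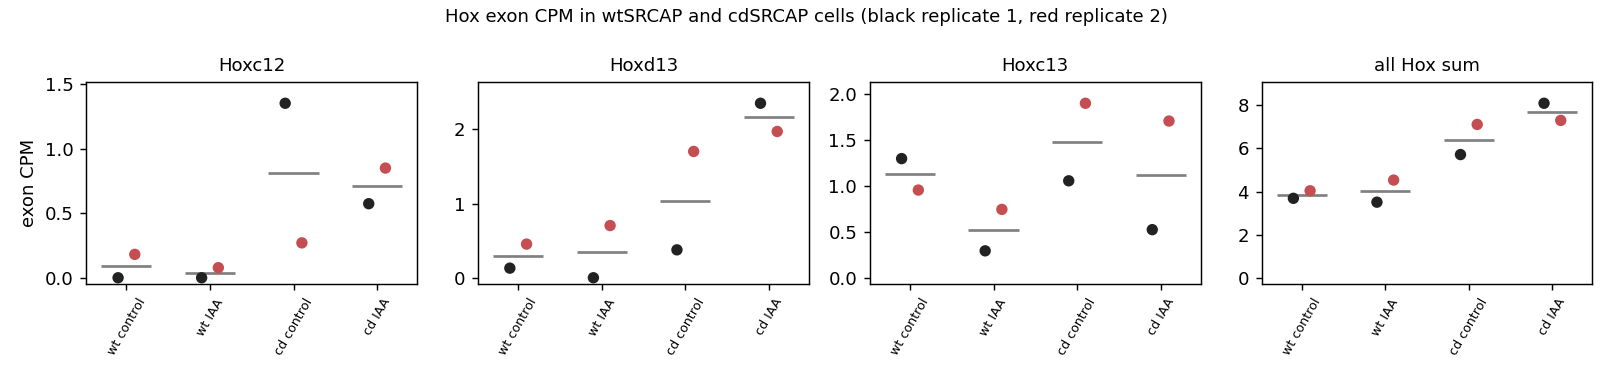
Exon CPM (y axis) of Hoxc12, Hoxd13, Hoxc13 and the sum of all 39 Hox genes in wtSRCAP and cdSRCAP cells (x axis: control or 4 h of IAA); points are libraries (black replicate 1, red replicate 2) and grey lines are means of 2. The 4 cdSRCAP libraries lie above the 4 wtSRCAP libraries for Hoxc12 and for the sum, while Hoxc13 overlaps.

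Intron columns gave no call among the members in any table (5 tested in the time course, 2 in CGR8, 7 in sorted cells and 1 in the transgenic cells). Of all genes in the intron columns, edgeR called between 0% and 0.00679% higher or lower at single times of the time course, and 0.204% higher and 0.707% lower for their mean. In CGR8 it called 0.0147% higher and 0.00733% lower, and in sorted cells 0.00573% higher in EG1 and 0% otherwise. With IAA it called 0.063% higher and 0.236% lower in wtSRCAP and 0.0236% and 0.213% in cdSRCAP cells, and between the lines 0.0945% and 0.00787% in control and 0.00787% each way after IAA. In the time course the intron counts are no independent view of the Hox genes, since Hoxd13 had 60 and 66 intron counts in control against 64 and 62 exon counts, and 105 and 102 against 107 and 102 after 8 h. In CGR8 cells Hoxc13 had 36 and 14 intron counts in control and 1 and 7 after IAA (log2 -3.23, SE 1.25; adjusted p = 0.925). Its exon counts there went the other way, with 49 and 24 in control and 86 and 39 after IAA. The exon groups overlapped on the CPM scale (edgeR, log2 0.48, SE 0.65, adjusted p = 0.855). The limit named for the time course introns holds in EG1 too. There, control libraries had 184 and 89 intron counts of Hoxc13 against 156 and 63 exon counts, and 34 and 51 of Hoxd13 against 45 and 54. No intron value of EG1 is therefore given as a separate measurement. The intron columns of EG1 (22775471 to 32872563 counts) and LG1 (4520810 to 7724200 counts) were not compared with each other, since they differ in size while the exon columns do not.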

How the data were processed

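Nuclear RNA-seq libraries were grouped by their labels, with biological duplicates. The authors aligned reads to mm10 with STAR, counted them with featureCounts on GENCODE vM25 exons and introns, and deposited whole-number counts per gene in 4 tables without normalization; separate tables of their DESeq2 comparisons on introns (levels, fold changes and p-values) were not used here. Symbols and positions came from GENCODE vM21 (GRCm38); 54349 of 55401 identifiers matched with version, among them all 39 members. The Hox genes, gene lists and thresholds were chosen with earlier results of these data known, and groupings made after the values were seen are named as such. Members were described individually if they were among the 3 highest of their cluster in the time course, were called, or were among the 3 with the smallest p of a table.

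All genes of a table were fitted together in edgeR 4.0.16 (R 4.3.3; glmQLFit, TMM, filterByExpr with minimum count 10 and minimum total 15), with Benjamini-Hochberg adjustment over all genes tested and a call at an absolute log2 change above 0.5 and adjusted p below 0.05. Sums over clusters were tested as added rows that did not enter the library sizes. DESeq2 1.42.0 was the alternative. CPM used TMM-scaled totals and was divided by exon length for levels. Exact permutation tests used scipy 1.17.1. Scripts were tested on simulated data. With 2 against 2 libraries, an exact permutation p cannot go below 0.333. Counting intervals are exact, at 95%, and cover counting error only. Alternatives were other scaling, filters, a replicate block and leaving out each library. The individual values of 1 member are not reported here, though sums and counts over all 39 include it.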

Additional observations from a re-analysis of the deposited data

How the results depend on the processing

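Across the alternatives, calls among the Hox genes stayed at 0 in the exon columns with 1 exception, and no sum of a cluster or of all members passed an adjusted p of 0.05 under any exon setting. Without a filter on low counts, 1 member was called in the time course, Hoxa10 at 6 h (log2 3.07, adjusted p = 0.0404); over its other alternatives it was not called. In the CGR8 introns the calls ranged from 0 to 1 when 1 library was left out, the 1 being Hoxc13 without control replicate 2. The cause of either was not tested.

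Of the 80 sums and contrasts, 39 changed direction when some library was left out and 4 under another setting. For the sum of all members, leaving out 1 library gave log2 ranges of -0.15 to 0.42 (IAA in EG1), -0.22 to 0.36 (IAA in LG1), -0.35 to 0.25 (LG1 against EG1, control), -0.34 to 0.11 (LG1 against EG1, after IAA), -0.37 to 0.23 (difference of the IAA effects between the phases), -0.12 to 0.24 (IAA in wtSRCAP) and -0.012 to 0.36 (difference of the IAA effects between cdSRCAP and wtSRCAP); its direction was kept in the time course (0.17 to 0.84), in CGR8 (-0.35 to -0.10), and between cdSRCAP and wtSRCAP (0.56 to 1.09). Without the highest member of each cluster, the permutation differences in CPM reversed for the Hoxd sum of the time course (-0.0631), the Hoxc sum of sorted cells (-0.26), and the Hoxa (0.116) and Hoxb (-0.068) sums of cdSRCAP against wtSRCAP; with unscaled totals the Hoxb sum of sorted cells reversed (-0.0256). The fitted differences of Hoxd13 and Hoxc12 after IAA between cdSRCAP and wtSRCAP depended on single libraries, with log2 ranges of 1.58 to 8.29 and 3.07 to 6.71.

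Replicates that share a number share no stated day or batch, and the correlation of their deviations ran from -0.02 to 0.65 in the time course, 0.48 to 0.68 in sorted cells, 0.38 to 0.51 in wtSRCAP and cdSRCAP cells and was 0.16 in CGR8. A replicate block gave 0 member calls in every exon comparison, and an all-Hox log2 change of 0.65 at 6 h (adjusted p = 0.071) and 0.66 at 8 h (adjusted p = 0.074). Permuting labels within replicate numbers, an alternative chosen after seeing the data, left no exact permutation p below 0.0556, the smallest possible in sorted and transgenic cells. Over all genes, calls at 6 h numbered 13 in the fit without a block, 823 with it and 639 by DESeq2, and for the mean of the 4 times 233, 792 and 546; in CGR8 they numbered 2, 500 and 140, and after IAA between cdSRCAP and wtSRCAP 1, 269 and 8. Depth limits all of this: most members had at most 5 counts per library.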
